A study of Mus musculus with 12 samples.

Results

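Ketone bodies are made in mitochondria from acetyl-CoA, carried in blood, and burned by other tissues as a fuel that bypasses glycolysis. The kidney takes them up along the proximal tubule, where reabsorbed ketone bodies are either returned to the blood or oxidised. The genes described here are the 5 of the count table that carry the symbols Oxct1, Acat1, Bdh1, Bdh2 and Acat2, out of 23420 genes in all. Oxct1 encodes the mitochondrial transferase that activates acetoacetate to acetoacetyl-CoA, the committed step of ketone body use, and Acat1 the mitochondrial thiolase that interconverts acetoacetyl-CoA and acetyl-CoA. Bdh1 encodes the mitochondrial dehydrogenase that interconverts beta-hydroxybutyrate and acetoacetate, Bdh2 a cytosolic dehydrogenase of the same broad enzyme family, and Acat2 the cytosolic thiolase whose product enters sterol synthesis. All 5 genes passed the filter on low counts.

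RNA was sequenced from unsorted tissue of 12 kidneys of male C57BL/6J mice, in 3 groups of 4 kidneys with no transgene in any group. The description of the experiment does not say whether a control and an ischemic kidney came from the same mouse. Control kidneys were normal kidneys obtained at nephrectomy, by the description of the experiment. The treatment label, which all 12 samples share, nevertheless names a clamped renal pedicle, 20 min of ischemia and collection at 24 h. If controls had no earlier surgery, the clamp surgery, its drugs and the recovery cannot be told apart from ischemia in comparisons with controls. The 8 ischemic kidneys were labelled in contradictory ways, so that ischemia set A denotes the 4 kidneys titled as anesthetised but entered as conscious in the group field, and ischemia set B the 4 kidneys titled as conscious but entered as anesthetised. No difference between the sets is therefore assigned to anesthesia here. The labels do not say whether the kidneys of a group were processed separately, so p-values measure the spread between these 12 libraries. The total count per kidney ranged from 15367342 to 44793350, with medians of 32884589.5 in controls, 27158369.5 for set A and 18181497.5 for set B and with overlap between the groups. A level is given as CPM, the count scaled to library size (here with TMM factors between 0.9677 and 1.025), and 3 counts, the floor used here, corresponded to 0.0661 to 0.19 CPM.

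After ischemia, 4 of the 5 ketone body genes were lower in each set, and none was higher. The log2 fold changes of Oxct1, Acat1, Bdh1 and Bdh2 ran from -3.27 to -2.67 in set A and from -3.05 to -2.38 in set B, while Acat2 did not pass the test in either set. Calls rest on the quasi-likelihood test of edgeR with Benjamini-Hochberg adjustment and a limit of 0.05. Across all 11664 genes tested, set A had 11.7% called lower and 10.5% called higher, and set B had 11.9% called lower and 10.9% called higher. The median log2 fold change of the 5 genes was -2.83 (set A) and -2.76 (set B), beside -0.02 over all genes tested in both sets. The 2 sets were compared with the same 4 control kidneys.

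**Figure D1:**
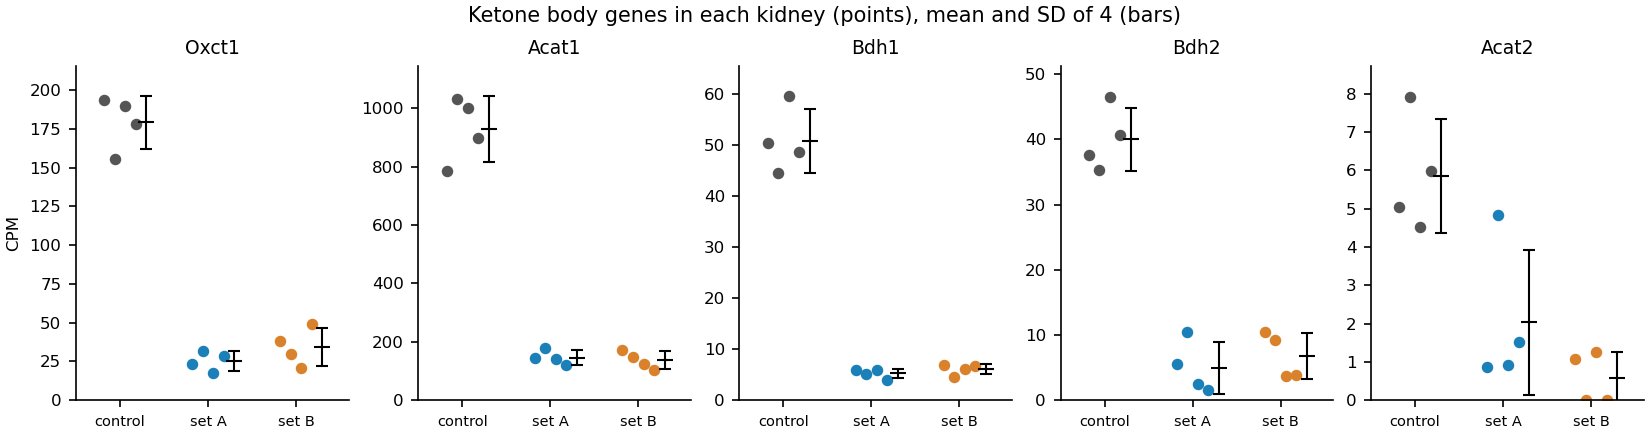
Level of the 5 ketone body genes in each of the 12 kidneys, in CPM on linear axes that start at 0, with points for single kidneys and bars for the mean and SD of 4. For Oxct1, Acat1, Bdh1 and Bdh2, every ischemic kidney lies below every control kidney, and Acat2 of a single set A kidney reaches the control range.

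Oxct1 (mm10, chr15:4026383-4155344, plus strand), the gene of the activating step, stood at 193, 156, 190 and 178 CPM in the 4 control kidneys. In set A it stood at 23.4, 31.6, 17.3 and 28.7 CPM, and in set B at 38.2, 29.5, 20.5 and 49.4 CPM. The highest ischemic kidney, in set B, thus remained far below the lowest control. The group means were 179 ± 17.1 CPM in controls, 25.2 ± 6.3 CPM for set A and 34.4 ± 12.4 CPM for set B (SD, n = 4). Relative to controls, the log2 fold change was -2.83 ± 0.25 (SE) in set A (adjusted p = 5.23e-08, edgeR) and -2.38 ± 0.24 in set B (adjusted p = 4.17e-07, edgeR), that is 7.11-fold and 5.21-fold lower.

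Acat1 (chr9:53580522-53610382, minus strand), which also closes the breakdown of isoleucine, was the most abundant of the 5 genes. Its level was 784, 1034, 1003 and 898 CPM in controls, 146, 179, 140 and 120 CPM in set A, and 173, 149, 123 and 102 CPM in set B. The ischemic values of both sets occupied nearly the same range and none came close to a control kidney. The means were 929.6 ± 113 CPM in controls, 146 ± 24.5 CPM for set A and 137 ± 31.0 CPM for set B (SD, n = 4). The log2 fold change was -2.67 ± 0.17 (SE) in set A (adjusted p = 7.74e-10, edgeR) and -2.76 ± 0.17 in set B (adjusted p = 6.26e-10, edgeR).

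Bdh1 (chr16:31422280-31458901, plus strand) had the largest fitted change of the 4 genes that fell, in set A and in set B. Its level was 50.3, 44.5, 59.5 and 48.6 CPM in controls, 5.84, 5.22, 5.88 and 3.98 CPM in set A, and 6.91, 4.62, 6.19 and 6.67 CPM in set B. Within each ischemic set the 4 kidneys lay close together. The means were 50.7 ± 6.33, 5.23 ± 0.89 and 6.1 ± 1.03 CPM (SD, n = 4), so that set A was 9.66-fold and set B 8.3-fold below control. The corresponding log2 fold changes were -3.27 ± 0.28 (SE, adjusted p = 4.64e-08) and -3.05 ± 0.28 (adjusted p = 1.16e-07) in edgeR's test.

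Bdh2 (chr3:135281221-135304426, plus strand) was the most variable of the 4 genes that fell. It stood at 37.6, 35.3, 46.5 and 40.7 CPM in controls, but at 5.56, 10.4, 2.47 and 1.51 CPM in set A and at 10.4, 9.3, 3.63 and 3.87 CPM in set B. The ischemic kidneys therefore ranged from 1.51 to 10.4 CPM, and all of them lay below the lowest control kidney. The means were 40.0 ± 4.85, 4.97 ± 3.98 and 6.8 ± 3.56 CPM (SD, n = 4). The log2 fold change was -3.01 ± 0.51 (SE) in set A (adjusted p = 0.000184, edgeR) and -2.55 ± 0.5 in set B (adjusted p = 0.000768, edgeR).

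For each of these 4 genes the exact permutation test of log2 CPM, two-sided with 4 kidneys against 4, gave p = 0.0286 in both sets, which is the smallest value that this design allows. Without replicate 4 of set B, the library with the lowest total count, the log2 fold changes in set B were -2.61 for Oxct1, -2.65 for Acat1, -3.1 for Bdh1 and -2.36 for Bdh2, and all 4 remained past the threshold in edgeR's test. All kidneys of set A lay below all controls for 4 of the 5 ketone body genes, beside 15.7% of all genes tested. All kidneys of set B lay below all controls for 5 of the 5, beside 15.1% of all genes tested.

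Acat2 (chr17:12942890-12960747, minus strand) was the least abundant of the 5 genes and rested on few reads. Its counts were 105, 304, 117 and 229 in controls, 27, 113, 42 and 25 in set A, and 32, 0, 26 and 0 in set B. These correspond to 5.86 ± 1.49 CPM in controls, 2.03 ± 1.89 CPM for set A and 0.584 ± 0.678 CPM for set B (SD, n = 4). A single set A kidney, replicate 2 at 4.84 CPM, reached into the control range of 4.52 to 7.9 CPM, and the 2 set B kidneys without a count had floors of 0.19 CPM each. The log2 fold change was -1.53 ± 1.21 (SE) in set A, with a 95% confidence interval from -4.07 to 1.01 (adjusted p = 0.462, edgeR). In set B it was -3.3 ± 1.3, with an interval from -6.02 to -0.58 and an adjusted p of 0.078 in edgeR, whereas the adjusted p was 0.0137 with DESeq2 and 0.00689 with limma-trend.

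Part of the Acat2 transcript cannot be told apart from Acat3, an adjoining gene that codes for a nearly identical thiolase. Acat3 (chr17:12923813-12940600, minus strand) starts 2289 bases beyond the 3′ end of Acat2 on the same strand. The coding sequences, taken from the mm10 annotation, are 1191 bases long in both genes and differ at 27 positions, an identity of 97.7%. By contrast, Acat1 and Acat2 share 57.6% of their aligned coding bases. Of the 2151 stretches of 100 bases along the Acat2 transcript, 760 (35.3%) occur unchanged in the Acat3 transcript, and 37.5% of those of Acat3 occur in Acat2. How reads with more than 1 best position were counted is not given in the sources used here. A pair of coding stretches shows both extremes. The first, in exon 2 of each gene, is the same in Acat2 (chr17:12960030-12960129) and Acat3 (chr17:12939909-12940008), so that a read from it could come from either gene. The second, in exon 8 at chr17:12944411-12944510 of Acat2 and chr17:12925279-12925378 of Acat3, differs at 8 positions, the most found within an exon, and capitals mark these positions. All are written 5′ to 3′ on the minus strand.
Acat2 and Acat3, exon 2: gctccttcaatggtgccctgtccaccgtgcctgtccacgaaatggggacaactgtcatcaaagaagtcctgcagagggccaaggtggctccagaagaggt
Acat2, exon 8: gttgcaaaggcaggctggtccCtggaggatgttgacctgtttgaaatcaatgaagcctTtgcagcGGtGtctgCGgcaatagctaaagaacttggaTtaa
Acat3, exon 8: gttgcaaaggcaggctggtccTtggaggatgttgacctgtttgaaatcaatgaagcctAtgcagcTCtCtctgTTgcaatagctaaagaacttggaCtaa

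Acat3 moved the other way in its means. Its level was 1.63, 1.74, 5.33 and 7.61 CPM in controls, 7.97, 12.1, 3.55 and 10.1 CPM in set A, and 15.6, 7.4, 6.38 and 7.11 CPM in set B. The groups overlapped, and the log2 fold changes of 1.04 in set A (adjusted p = 0.255) and 1.16 in set B (adjusted p = 0.189) did not pass edgeR's test. The 2 set B kidneys with no Acat2 count held 117 and 112 counts of Acat3. Acat3 also overlaps Tcp1, a chaperonin subunit gene on the opposite strand, by 1255 bases. Tcp1 had log2 fold changes of 0.42 in set A (adjusted p = 0.0195, edgeR) and 0.16 in set B (adjusted p = 0.426, edgeR). The call in set A was lost without control replicate 1 or 4, or set A replicate 2 or 3 (adjusted p between 0.0581 and 0.0641, edgeR). The strand setting of the counting is not given in the sources used here.

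When the counts of Acat2 and Acat3 were added within each kidney, the sum was 9.94 ± 2.84 CPM in controls, 10.5 ± 5.23 CPM for set A and 9.71 ± 4.65 CPM for set B (SD, n = 4). The summed row gave a log2 fold change of 0.07 in set A (adjusted p = 0.956) and -0.03 in set B (adjusted p = 0.982) in edgeR's test. This sum was chosen after the data were seen. A level sum can arise if reads were shared between the genes or if Acat2 fell while Acat3 rose, and it cannot tell these apart. Because the handling of shared reads is not given, the values of Acat2 alone stay uncertain in both sets.

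**Figure D2:**
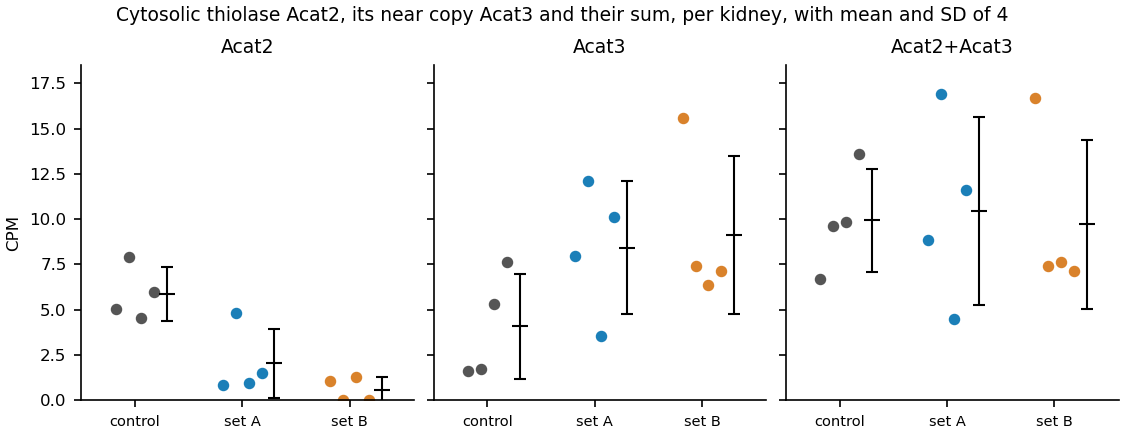
Acat2, Acat3 and the sum of both in each kidney, in CPM on a shared linear axis that starts at 0, with points for single kidneys and bars for the mean and SD of 4. Acat2 is lower and Acat3 higher on average in the ischemic sets, and the means of the sum lie between 9.71 and 10.5 CPM in all 3 groups.

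Levels of different genes were compared only per length, as CPM per kilobase of annotated exon (RPKM). In the controls the order was Acat1 at 247 ± 30.1, Oxct1 at 48.4 ± 4.61, Bdh1 at 13.0 ± 1.63, Bdh2 at 9.41 ± 1.14 and Acat2 at 2.3 ± 0.586 RPKM (SD, n = 4), with no overlap between neighbours in that order. In set A, Acat1 at 38.9 ± 6.52 and Oxct1 at 6.82 ± 1.7 RPKM still led without overlap, but Bdh1 at 1.35 ± 0.229, Bdh2 at 1.17 ± 0.937 and Acat2 at 0.798 ± 0.744 RPKM overlapped. In set B, Acat1 stood at 36.4 ± 8.26, Oxct1 at 9.29 ± 3.34, Bdh2 at 1.6 ± 0.837, Bdh1 at 1.57 ± 0.265 and Acat2 at 0.23 ± 0.267 RPKM, and the ranges of Bdh1 and Bdh2 overlapped. The order of Acat1 above Oxct1 above the dehydrogenases was thus the same in both ischemic sets as in controls, at a lower level.

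Ratios within a kidney do not depend on the scaling of the libraries, and they were compared with two-sided exact permutation tests of the log2 ratio, 4 kidneys against 4. The 10 ratios in 3 comparisons gave 30 tests, of which the smallest adjusted p was 0.107, so none passed the adjustment. The smallest exact p that 4 kidneys against 4 allow is 0.0286. A single ratio at that value could not pass the adjustment over 30 tests, however large its difference. Bdh1/Bdh2, Bdh1/Oxct1, Bdh2/Oxct1 and Acat1/Oxct1 overlapped between ischemic and control kidneys in both sets. The Acat1/Oxct1 ratio per exon length, for example, had a median of 5.08 in controls, beside 5.86 (set A) and 4.72 (set B). Against Cs, the citrate synthase gene, whose own mean was 300.5 CPM in controls, 302.1 in set A but 284.3 in set B, both mitochondrial genes were lower in every ischemic kidney. The Oxct1/Cs ratio per exon length ran from 0.839 to 1.02 in controls, from 0.0919 to 0.157 in set A and from 0.107 to 0.28 in set B. The Acat1/Cs ratio ran from 4.06 to 5.49 in controls, from 0.645 to 0.815 in set A and from 0.568 to 0.907 in set B. The log2 differences were -2.86 and -2.37 for Oxct1/Cs and -2.68 and -2.7 for Acat1/Cs, in sets A and B, each with an exact p of 0.0286 and an adjusted p of 0.107.

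**Figure D3:**
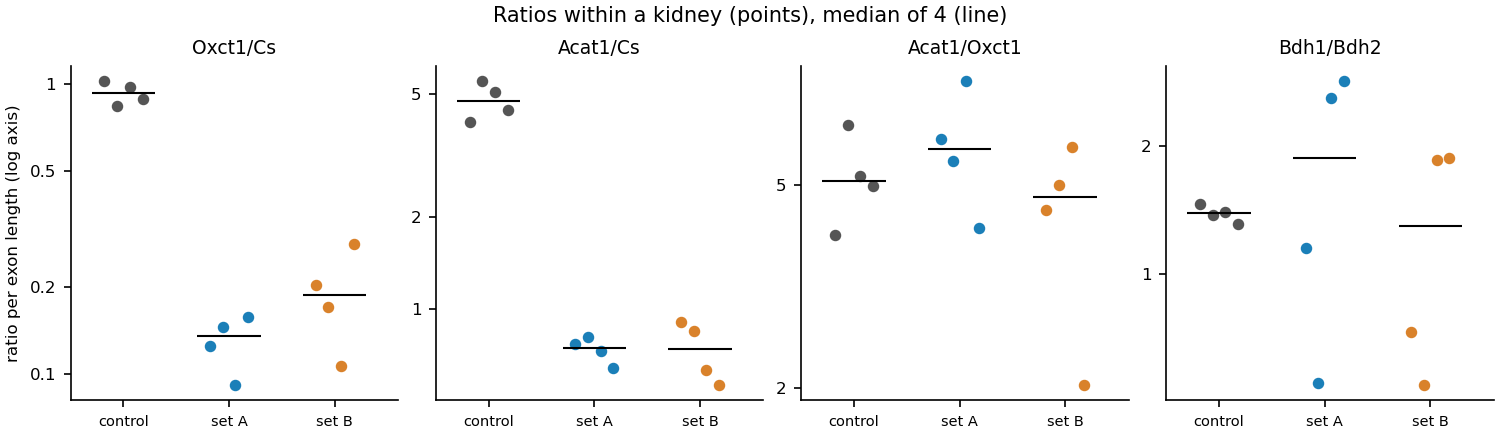
Ratios of 2 genes within each kidney, per exon length and on log axes, with points for single kidneys and a line at the median of 4. Oxct1/Cs and Acat1/Cs lie lower in every ischemic kidney than in any control, while Acat1/Oxct1 and Bdh1/Bdh2 overlap between the groups.

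Of the other genes of ketone body use, Aacs, the cytosolic synthetase that activates acetoacetate for lipid synthesis, stood at 43.3, 54.0, 43.8 and 75.8 CPM in controls, 15.7, 9.84, 13.5 and 5.84 CPM in set A, and 13.8, 4.11, 4.79 and 7.81 CPM in set B. All ischemic kidneys lay below all controls. Aacs had a log2 fold change of -2.27 in set A (adjusted p = 0.000182, edgeR) and of -2.82 in set B (adjusted p = 2.13e-05, edgeR). Oxct2a and Oxct2b, relatives of Oxct1 known from the testis, had 0 counts in all 12 kidneys, which allows up to 3 counts in each. The sequences of these 2 genes were not compared, and how shared reads were counted is not given. Their 0 counts therefore need not mean absent RNA. Hmgcll1 did not pass in either set, with log2 fold changes of 0.13 and -0.72.

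Between the 2 ischemic sets, none of the 5 ketone body genes passed the test in edgeR, DESeq2 or limma-trend, and none had an unadjusted p below 0.05 in edgeR's test, beside 587 of all 11664 genes at that unadjusted level and 0.00857% (1 gene) at an adjusted p under 0.05. The differences of set B minus set A, on the log2 scale with 95% intervals, were 0.45 (from -0.04 to 0.94) for Oxct1, -0.09 (from -0.43 to 0.24) for Acat1, 0.22 (from -0.34 to 0.77) for Bdh1, 0.45 (from -0.56 to 1.46) for Bdh2 and -1.77 (from -4.35 to 0.81) for Acat2. The intervals of Oxct1, Acat1 and Bdh1 leave out a change of 1 log2 unit in either direction, whereas those of Bdh2 and Acat2 do not. With 1 kidney left out at a time, the difference ran from 0.16 to 1.09 for Bdh2 and from -2.42 to -0.88 for Acat2. None of the 5 genes separated the sets without overlap, beside 2.61% of all genes.

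Transport across the membrane precedes use, and its genes changed in both directions. Of 7 transport genes, 6 could be tested, and in each set 1 was higher (Slc16a6) and 3 were lower (Slc5a8, Slc5a12 and Slc16a7). The call of Slc16a7 was lost under 10 of 19 other settings in set A and under 6 of 19 in set B. Slc5a8, a sodium-coupled transporter of monocarboxylates including ketone bodies, stood at 148, 140.3, 145 and 166 CPM in controls, 3.9, 9.67, 3.75 and 8.97 CPM in set A, and 5.36, 3.23, 3.72 and 2.29 CPM in set B. The log2 fold change was -4.53 in set A (adjusted p = 6.1e-09, edgeR) and -5.34 in set B (adjusted p = 1.28e-09, edgeR), further from 0 than that of any of the 5 ketone body genes.

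Slc5a12, the low-affinity relative of Slc5a8, was the 1 gene of 11664 tested that passed the test between the ischemic sets. It stood at 153, 119, 129.7 and 145 CPM in controls, 17.5, 13.5, 9.34 and 14.1 CPM in set A, and 75.2, 28.4, 62.2 and 30.0 CPM in set B, with no overlap among the 3 groups. The log2 fold change was -3.33 in set A (adjusted p = 7.13e-08, edgeR) and -1.48 in set B (adjusted p = 0.000459, edgeR), and set B was higher than set A by 1.85 ± 0.28 (SE, adjusted p = 0.0328, edgeR). The last call was lost under 12 of 19 other settings. These were limma-trend, the fit of the 2 sets alone, and leaving out any kidney other than replicates 2 and 4 of set B, and the difference stayed between 1.56 and 2.03 under all 19.

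Slc16a6, a monocarboxylate transporter known for the export of ketone bodies from hepatocytes, was higher after ischemia. It stood at 2.83, 4.47, 11.3 and 5.59 CPM in controls, 20.7, 25.1, 24.7 and 20.4 CPM in set A, and 23.6, 18.6, 21.9 and 9.27 CPM in set B. The log2 fold change was 1.91 ± 0.41 (SE) in set A (adjusted p = 0.0016, edgeR), and 1.6 ± 0.41 in set B (adjusted p = 0.00627, edgeR), where replicate 4 lay within the control range. Slc16a7 had 55, 107, 29 and 56 counts in controls and 1 count in a single kidney of the 8 ischemic kidneys, so no fold is given. Slc16a1 and Bsg, a transporter and its chaperone, did not pass in either set, with log2 fold changes of -0.38 and 0.35 for Slc16a1 and -1.68 and -1.69 for Bsg.

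**Figure D4:**
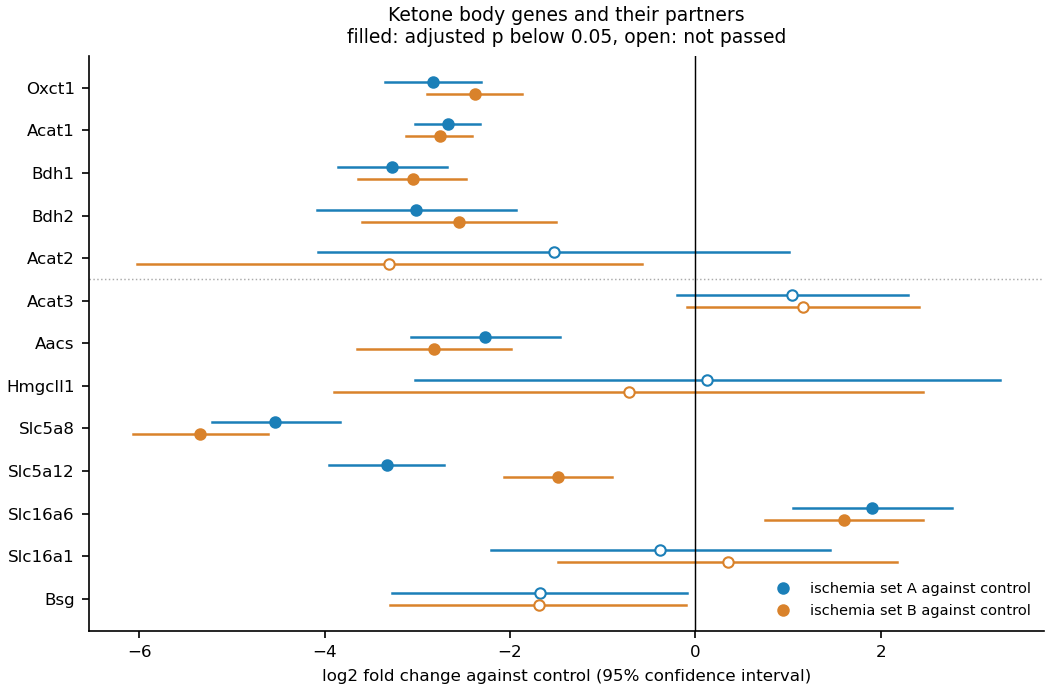
Log2 fold change against control with its 95% confidence interval for the 5 ketone body genes (above the dotted line), Acat3, 2 other genes of the pathway and 5 transport genes (Slc16a7, with almost no ischemic counts, is left out), in ischemia set A (blue) and set B (orange), with filled points for genes past an adjusted p of 0.05. Oxct1, Acat1, Bdh1 and Bdh2 lie between -3.27 and -2.38, Acat3 and Slc16a6 lie above 0, and Slc5a8 lies lowest of the genes drawn.

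Among genes known to control ketone body synthesis, 6 of 7 were tested and 2 were lower in each set, Ppargc1a and Rxra, a coactivator and a nuclear receptor partner of Ppara. Ppargc1a had a log2 fold change of -1.16 in set A (adjusted p = 0.000317, edgeR) and of -0.85 in set B (adjusted p = 0.00468, edgeR). Ppara itself had log2 fold changes of -1.91 and -1.13 and did not pass (adjusted p = 0.0554 and 0.277, edgeR). Under 4 of 19 other settings Ppara did pass as lower in set A, among them DESeq2 (adjusted p = 0.0305) and limma-trend (adjusted p = 0.0186).

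Pathways that meet at the same metabolites held called genes in the lower direction alone. Of 14 genes of branched-chain amino acid breakdown, of which the isoleucine branch ends in the Acat1 step, set A had 12 lower and set B 11. The median log2 fold changes were -1.78 and -1.37. This list covers isoleucine and leucine and includes Hibch and Hibadh of valine breakdown, of which both were called in set A and Hibadh alone in set B. Of 17 tested genes of mitochondrial beta-oxidation, 9 and 10 were lower (medians -1.1 and -1.29), and of 17 genes of the TCA cycle, 14 and 13 were lower (medians -1.09 and -1.07). Among 5 other thiolases, 3 and 5 were lower, with medians of -1.1 and -1.08. Of 8 other short-chain dehydrogenases and related enzymes, set beside Bdh1 and Bdh2, 3 and 2 were lower (medians -1.32 and -1.09). No gene of these 5 lists was called higher in either set. Each of these medians lay nearer to 0 than those of the 5 ketone body genes, -2.83 and -2.76, a difference that was not tested.

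Acat2 feeds the route from cytosolic acetoacetyl-CoA to sterols. Of 12 tested genes of this route, 4 were lower and none was higher in each set, with medians of -0.6 and -0.51. Hmgcs1, the enzyme that takes up the product of Acat2, had a log2 fold change of -2.43 in set A (adjusted p = 2.87e-07, edgeR) and of -2.4 in set B (adjusted p = 3.46e-07, edgeR).

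**Figure D5:**
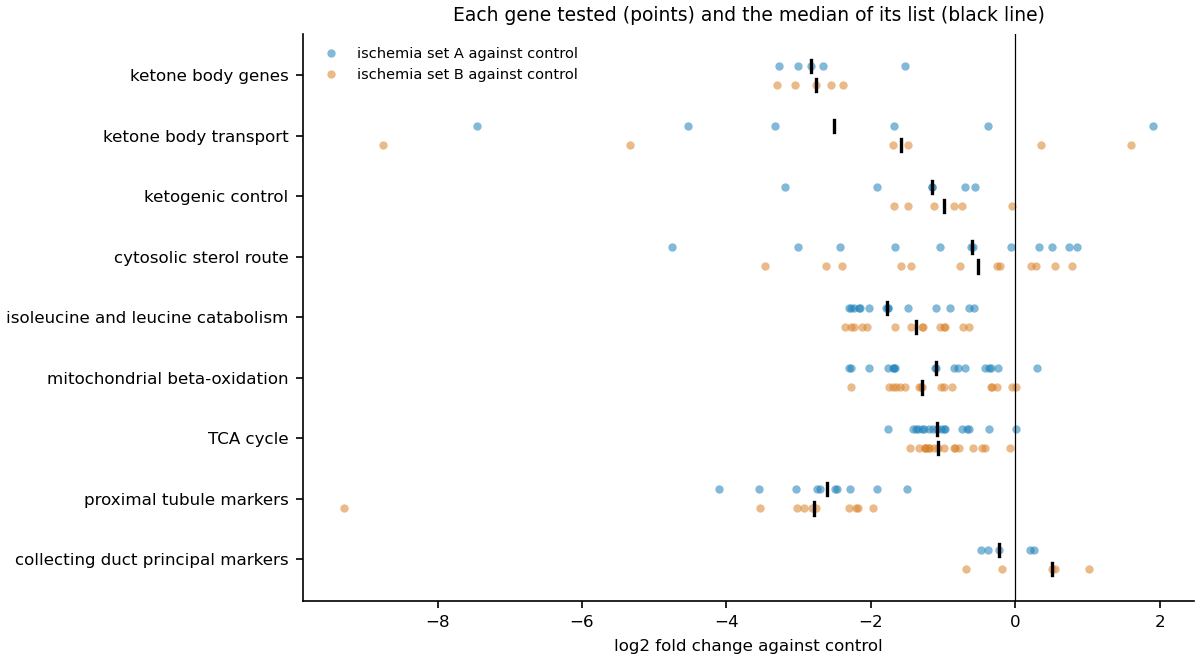
Log2 fold change against control of every tested gene in each list (points) and the median of the list (black line), for ischemia set A (blue) and set B (orange). The list named isoleucine and leucine catabolism also holds Hibch and Hibadh of valine breakdown. The medians of the ketone body genes, -2.83 and -2.76, lie near those of the proximal tubule markers, -2.6 and -2.79, and further from 0 than those of beta-oxidation and the TCA cycle.

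Markers of the proximal tubule moved with the ketone body genes. All 10 markers were lower in both sets, with median log2 fold changes of -2.6 and -2.79, and their summed level was 7394 to 8247 CPM in controls, 799.8 to 1504 CPM for set A and 474 to 1496 CPM for set B. In unsorted kidney tissue, fewer cells of a type and less RNA per cell cannot be told apart, and the part of this shift in the fall of Oxct1, Acat1, Bdh1 and Bdh2 was not tested. Of 5 markers of the thick ascending limb, 2 were lower in each set, and their summed level was 1690 to 1802 CPM in controls and 284.5 to 780.7 CPM over both ischemic sets. Of 4 distal convoluted tubule markers, set A had 1 lower and set B had 2 lower, and the median of their summed level was 1639 CPM in controls, 941.5 CPM for set A and 1073 CPM for set B. Of 5 podocyte markers, 3 were higher in each set, with a summed level of 161 to 195.5 CPM in controls and 194 to 366 CPM over both ischemic sets. Of 5 tested immune markers, 2 were lower in each set, with a summed level of 44.7 to 67.4 CPM in controls and 9.46 to 35.6 CPM over both ischemic sets. Among 5 intercalated cell markers 1 was lower in each set, and none of 4 tested endothelial markers passed. The part of these shifts in the values of the 5 ketone body genes was not tested. None of the 5 collecting duct principal cell markers passed in either set, and 4 of 5 markers of injured tubule were higher in both sets. The summed level of the latter was between 3.74 and 9.96 CPM in controls and between 157 and 214 CPM (set A) or 145 and 171 CPM (set B). The lists for other tissues with their own ketone body metabolism were low but not at 0. Of 5 liver markers, Apoa1 was at or below 3 counts in all 12 kidneys, and the summed level was 18.1 to 23.7 CPM in controls, 5.75 to 17.5 CPM for set A and 4.57 to 22.2 CPM for set B. Within it, Fgb was higher in both sets (log2 fold changes 2.99 and 4.02, adjusted p = 0.0439 and 0.00965, edgeR), and Ttr, at a mean of 18.6 CPM in controls, was lower in set B (-3.61, adjusted p = 0.0192, edgeR). Of 4 fat markers, Adipoq, Plin1 and Cidec were at or below 3 counts in all 12 kidneys, and Car3 had a mean of 5.6 CPM in controls, so that the sum was 4.03 to 6.77 CPM in controls and 0 to 0.91 CPM after ischemia. Of 4 muscle markers, Ckm and Myh4 were at or below 3 counts in all 12 kidneys, and the sum reached at most 2.92 CPM. Fgb, Ttr, Car3 and the single thick ascending limb and immune markers were named after their values were seen. The part of liver, fat and muscle in the values of the 5 ketone body genes was not tested.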

How the data were processed

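Stranded mRNA libraries of 12 mouse kidneys, from the tissue left after the middle portion was fixed for histology, were sequenced as single reads. Per the labels and the study's methods, the authors mapped reads to mm10 with STAR, counted them with HTSeq and deposited raw counts of 23420 genes. Versions, annotation release, strand setting and treatment of shared reads are not given in the sources used here. The counts were tested in edgeR 4.0.16 (R 4.3.3) with TMM scaling, the default low-count filter (minimum count 10, minimum total 15, leaving 11664 genes) and 1 quasi-likelihood fit of all 12 kidneys, with Benjamini-Hochberg adjustment over those genes and a limit of 0.05. DESeq2 1.42.0, limma 3.58.1, RLE size factors, other filters, a 2-group fit, the replicate number as a block and leaving out each kidney were alternatives. Ratios used counts plus 0.5. Positions, lengths and sequences came from an annotation of GRCm38 (mm10). The procedure was tested on simulated counts. The 5 genes and all lists were chosen with earlier results of these data known. Named genes were the 5, and others from fixed lists of ketone body synthesis, near copies, transport and control. Single marker genes were named after their values were seen. Cs and Hmgcs1 were fixed as ratio partners. The 5 genes, Acat2 included, were correlated with each other and with the other genes whose mean log2 CPM reached 3. Floors cover counting error only, since reads carry no molecular identifiers, whereas the confidence intervals come from the edgeR fit and include the spread between kidneys. Some genes of ketone body synthesis are not reported here.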

Additional observations from a re-analysis of the deposited data

Results flagged for a closer look

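Acat2 in replicate 2 of ischemia set A stood apart from the other 3 kidneys of that set, at 4.84 CPM, with a gap of 0.837 of the group's range against a critical value of 0.829. Acat3 in replicate 1 of ischemia set B stood apart in the same way, at 15.6 CPM, with a gap of 0.889 of the range. In all, 27 groups of 4 kidneys were examined and 2 met this criterion, which chance meets in about 1 in 20 groups. Slc5a12 differed between the ischemic sets, with a log2 difference of 1.85 of set B minus set A (adjusted p = 0.0328, edgeR's quasi-likelihood test), a call that 12 of 19 alternatives did not keep.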

How the results depend on the processing

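Oxct1, Acat1, Bdh1 and Bdh2 stayed lower and past the threshold in both sets under all 19 alternatives each. The number of ketone body genes called was 4 in set A under every alternative, 4 or 5 in set B and 0 between the sets, and leaving out each kidney in turn gave 4 in both sets. Bdh2 ranged from -3.64 to -2.73 (set A) and from -2.85 to -2.36 (set B). Acat2 in set B passed with DESeq2 (-3.28) and limma-trend (-4.26). Over the single kidneys left out, Acat2 ranged from -2.42 to -1.25 in set A and from -3.97 to -2.9 in set B. Acat2 in set A turned to 0.07 when its counts were added to those of Acat3, an alternative chosen after seeing the data. The difference of Acat1 between the sets, -0.09, turned to 0.02 without replicate 2 of set A and to 0.03 without replicate 4 of set B, in a range from -0.23 over the single kidneys left out. Among other genes, Slc16a1 turned to 0.03 in set A without control replicate 1, and in set B to -0.91 with limma-trend and -0.09 without replicate 3 of set B. Hmgcll1 turned to -0.27 in set A without control replicate 1 and to -0.13 without replicate 2 of set A. Cpt1a turned in set B to 0.14 without control replicate 4, 0.16 without replicate 2 and 0.04 without replicate 3 of set B. Over the single kidneys left out, the other ends of the ranges were 0.54 (Hmgcll1, set A), -0.65 and 0.76 (Slc16a1, sets A and B) and -0.56 (Cpt1a, set B). None of these reversed values passed the threshold, and their cause was not tested. Slc16a7 lost its call under 10 alternatives in set A, and under 6 in set B. Kidneys of different groups with the same replicate number did not vary together, with correlations of deviations between -0.055 and 0.045. Pairings across other replicate numbers were not examined. With the replicate block, 4 ketone body genes were called in each set. Depth limits Acat2, at 0 to 304 counts per kidney, more than the other 4 genes.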

Other observations

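Within groups, the ketone body genes did not rise and fall together from kidney to kidney, with a single exception. After subtraction of each group's mean, log2 CPM of Bdh2 and Acat1 followed each other over the 12 kidneys (Pearson's r = 0.8, Spearman's rho = 0.82), whereas the other 9 pairs had r between -0.2 and 0.44. These are descriptions over kidneys that share 3 group means. The genes whose deviations were most like those of Bdh2, among 6448 genes compared, were Tmem59 (r = 0.93), Slc33a1 (r = 0.92) and Ace (r = 0.91), and Acat1 ranked 55. For Oxct1 they were Yeats4 (r = 0.92), Uck1 (r = 0.91) and Osbp2 (r = 0.91), and for Bdh1 they were Coro2b (r = 0.92), Dgcr2 (r = 0.91) and Mcm3 (r = 0.88). No test was run on these values.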
